A study of Mus musculus with 16 samples.

Results

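Transcripts of 7 glycosyltransferase genes of the intestinal epithelium, Mgat4a, Mgat4b, Mgat4c, B4galt5, B4galnt2, B3galt5 and Fut2, were followed along the small intestine, in duodenum and ileum, of mice that lost the enteroendocrine cell regulator Neurog3 and of controls. The 7 genes were a fixed list of symbols among the 55359 genes of the count table, and all 7 passed the filter on low counts in every comparison. Mgat4c and B4galt5 were listed because their genotype effect differed between the tissues in these same libraries. Their values by genotype, and between control tissues, are therefore given as a description without a test. The other 5 were tested in every comparison. All 7 were tested in the comparison of the tissues averaged over genotypes, a contrast that the choice did not use, although it rests on the same libraries.

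The study sequenced total RNA of both tissues from 8 adult male C57BL/6N mice on a standard diet, 4 per genotype, collected 18 weeks after tamoxifen, giving 16 libraries in 4 groups of 4. Mutants were Neurog3f/f; Villin-CreERT2, in which a tamoxifen-activated recombinase under the Villin promoter of the intestinal epithelium deletes Neurog3, whose product commits progenitors to enteroendocrine cells. Controls were Neurog3f/f, so both genotypes carried the floxed alleles, and an effect of the transgene cannot be told apart from that of Neurog3 loss. The labels do not say separately that controls were given tamoxifen. Each animal gave both tissues, and the labels give controls names that begin with NF and mutants names that begin with NFVCT.

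Neurog3 (ENSMUSG00000044312) had 0 counts in all 8 mutant libraries and between 8 and 37 in the control libraries. Enteroendocrine markers (10 genes) summed to 4.38 to 19.8 CPM (counts scaled to a common library size) in mutant and 351 to 524 in control duodenum, and to 3.5 to 5.41 in mutant and 212 to 315 in control ileum. None of the 10 was at 0 in all mutant duodenal libraries, and the hormone genes Gip and Pyy were at 0 in all mutant ileal libraries. Total counts ran from 8213889 to 35076714 per library. The tissue labels matched regional markers that were chosen after their values were seen: the ileal bile acid transporter Slc10a2 averaged 1260 and 1190 CPM in control and mutant ileum against 1.62 and 2.02 in duodenum, and the proximal transcription factor Gata4 averaged 158 and 150 CPM in duodenum against 17.5 and 16.5 in ileum. The duodenal libraries also held pancreatic acinar transcripts, with 12 markers summing to 63000 to 171000 CPM in controls and 17800 to 199000 in mutants. In tissue RNA of this kind, fewer cells of a type and less RNA per cell cannot be told apart.

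Glycosyltransferases of the Golgi build the sugar chains of mucins, membrane proteins and glycolipids by adding 1 sugar at a time, and the chains on the gut surface serve as binding sites and food for microbes. The Mgat4 enzymes add a branch to asparagine-linked glycans; Mgat4a and Mgat4b are the established branching enzymes, and Mgat4c was placed in the family by its sequence. B4galt5 adds galactose, mainly to glucosylceramide to give lactosylceramide, the start of most complex glycosphingolipids. B4galnt2 adds the terminal N-acetylgalactosamine of the Sda antigen, B3galt5 makes the galactose-ended chains on which Lewis antigens are built, and Fut2 adds the fucose of the H antigen on epithelial and mucin glycans.

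Start-site sequences were available for 5 of the 7 genes, in 11 windows of 300 bases (250 before and 50 after an annotated start) from RefSeq on build GRCm38.p6; Mgat4b and Fut2 were not listed. Mgat4c had 4 such windows on chromosome 10. The letters AGATAA were searched on both strands as a motif of GATA factors. They occurred in 3 of the 4 Mgat4c windows and in none of the windows of the other 4 genes, against 11.2% of all 32851 windows of that length. The middle 2 Mgat4c windows overlap in part, and the 11.2% is not matched for G and C content. An excess was not tested. The CDX-type letters TTTATG occurred in 1 B3galt5 window (11.9% of all windows) and the HNF1-type letters GTTAAT in none (7.1% of all windows). The counts were made per gene, so they do not show which start was used. The 250 bases before 2 of the Mgat4c starts and before the B4galt5 start are shown because these genes carry the main patterns described here; capitals mark the AGATAA letters, and no such letters lie in the B4galt5 stretch. The Mgat4c stretches lie at chr10:101681237-101681486 and chr10:102374187-102374436 on the plus strand, with 26.8% and 47.2% G or C, and the B4galt5 stretch at chr2:167349179-167349428 on the minus strand, with 73.2%.
Mgat4c, first start: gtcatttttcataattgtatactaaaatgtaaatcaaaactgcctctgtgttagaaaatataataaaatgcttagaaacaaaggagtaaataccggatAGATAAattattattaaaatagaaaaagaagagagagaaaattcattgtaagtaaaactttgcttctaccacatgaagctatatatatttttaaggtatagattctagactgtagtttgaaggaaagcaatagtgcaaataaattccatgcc
Mgat4c, last start: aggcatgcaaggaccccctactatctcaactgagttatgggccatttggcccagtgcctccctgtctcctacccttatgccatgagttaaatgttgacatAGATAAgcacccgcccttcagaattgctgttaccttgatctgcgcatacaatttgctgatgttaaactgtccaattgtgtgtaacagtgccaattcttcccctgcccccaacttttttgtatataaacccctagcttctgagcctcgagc
B4galt5: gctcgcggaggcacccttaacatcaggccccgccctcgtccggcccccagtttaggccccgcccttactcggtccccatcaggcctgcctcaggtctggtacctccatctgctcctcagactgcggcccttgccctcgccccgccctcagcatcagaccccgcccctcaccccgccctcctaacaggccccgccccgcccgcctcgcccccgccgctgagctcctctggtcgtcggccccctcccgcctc

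Mgat4c (ENSMUSG00000019888) was an ileal transcript, and its low duodenal level was higher in every mutant than in any control. In control duodenum it stood at 2.54, 1.96, 4.85 and 1.70 CPM in NF17, NF29, NF32 and NF152, resting on 31, 21, 53 and 32 counts. In mutant duodenum it stood at 16.6, 19.3, 22.5 and 13.3 CPM in NFVCT27, NFVCT38, NFVCT153 and NFVCT190, resting on 198, 329, 752 and 126 counts. The groups did not overlap, and the lowest mutant stood well above NF32, the highest control. The mutant mean was 6.52-fold that of controls in the fit, a log2 difference of 2.70 (SE 0.30). Over the fits that left out 1 library, this difference ran from 2.51 to 3.11, the highest without NF32.

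In the ileum, Mgat4c was abundant in both genotypes and did not separate them. Controls held 590, 683, 607 and 806 CPM and mutants 650, 668, 545 and 696 CPM, in the same order of animals. The ranges overlapped, and the fitted log2 difference was -0.08 (SE 0.12). With the smooth muscle score as a covariate the ileal difference was 0.41 (SE 0.18), a fit that cannot separate smooth muscle from genotype. The genotype effect in the ileum minus that in the duodenum, the measure on which the gene was chosen, was -2.78 on the log2 scale (SE 0.32).

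The tissue difference itself was far larger than the genotype difference. Averaged over genotypes, Mgat4c was 93.3-fold higher in ileum than in duodenum, a log2 difference of 6.54 (SE 0.19; adjusted p = 8.14e-15, edgeR quasi-likelihood test over all genes), and it was higher in ileum in 4 of 4 controls and 4 of 4 mutants. Within single animals, the ileal level was 125 to 474 times the duodenal level in controls (median 290) and 24.2 to 52.4 times in mutants (median 37.0). The mutant duodenum reached 2.80% of the mutant ileal mean, and the control duodenum 0.412% of the control ileal mean. The same share was 0.169% and 0.129% for Slc10a2. For Fabp6, the ileal bile acid binding protein, it was 0.00989% and 0.00713%. Fabp6 was lower in mutants in both tissues, at 790 against 3040 CPM in ileum and 0.0781 against 0.217 in duodenum. Its higher share in mutants thus came with a lower ileal mean. The share was also higher in mutants for P2ry2 (12.6% and 8.66%), Defa21 (1.69% and 0.903%) and Defa22 (1.45% and 0.797%), which are described below.

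**Figure D1:**
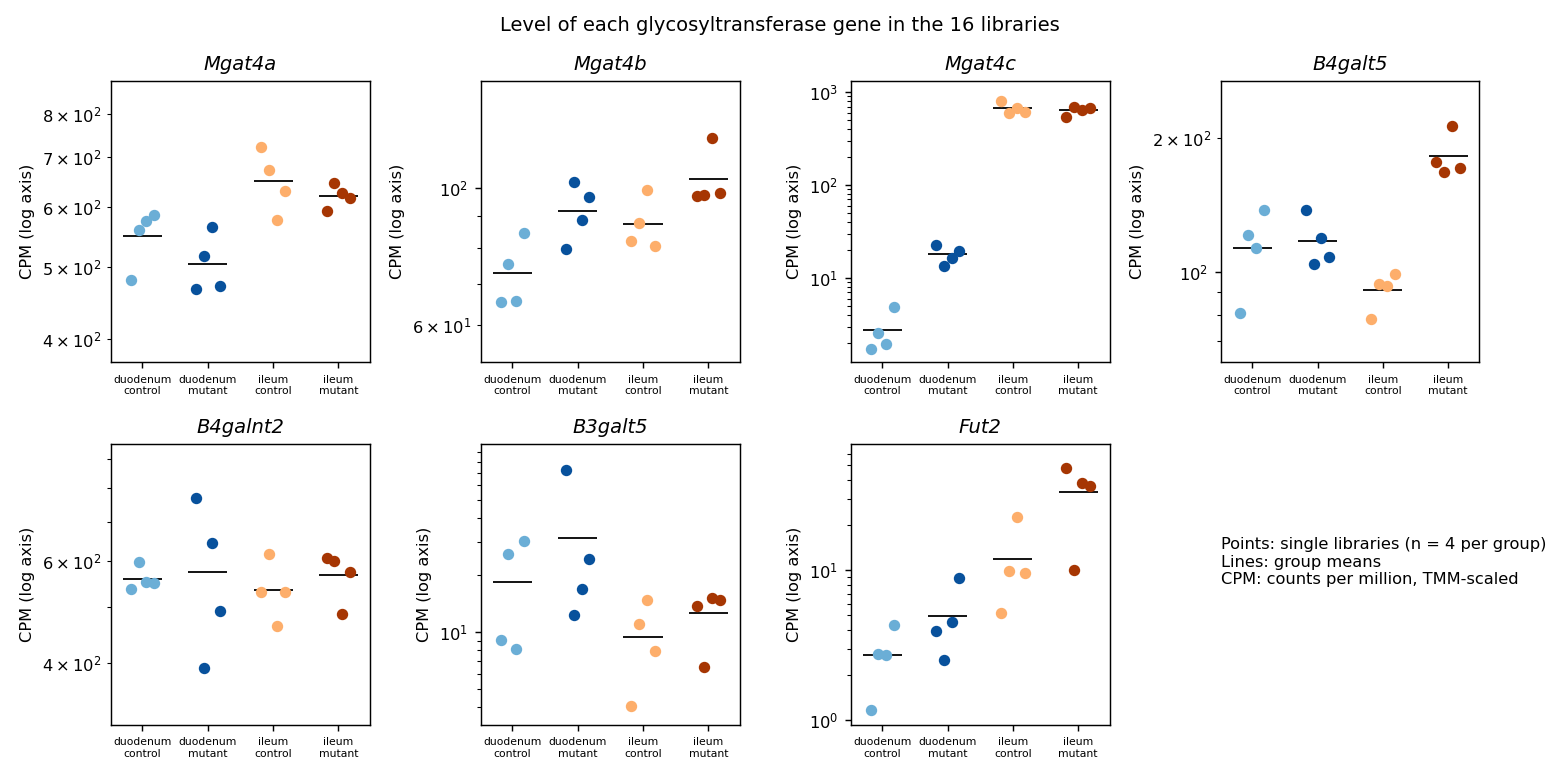
Level of each of the 7 genes in CPM on a log axis, with 1 point per library, 4 libraries per group and lines at the group means. Mgat4c rises from 2.76 CPM in control duodenum to 17.9 in mutant duodenum and 671 and 639 in the ileal groups, and B4galt5 stands apart only in mutant ileum.

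Relative to epithelial markers the duodenal pattern of Mgat4c was similar. Per 1000 counts of 12 epithelial genes, Mgat4c had 0.35 ± 0.161 counts in control and 1.97 ± 0.374 in mutant duodenum (SD, n = 4 each). The epithelial markers themselves overlapped between the genotypes, with summed levels of 6560 to 8380 CPM in controls and 6520 to 11100 in mutants. Fitting the acinar score as a covariate gave a log2 difference of 2.60 (SE 0.31), and leaving out the library of highest acinar level in each genotype gave 2.76 (SE 0.37). Summed immune markers were lower in mutant duodenum, at 140 to 226 CPM against 259 to 296 in controls over 9 genes, of which none was at 0. Of the 8 tested, 1 was called lower (edgeR) and 7 were not called, against 0.299% of all genes called lower. Paneth cell markers overlapped at their ends, at 7450 to 9280 CPM in mutants and 3960 to 7950 in controls over 8 genes. None of the 8 was called (edgeR), against 0.0952% of all genes called higher, and their median log2 difference was 0.59. The part of these cell types in the Mgat4c result was not tested.

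Per length, Mgat4c was the least abundant of the 3 detected Mgat4 transcripts in duodenum and the most abundant in ileum. Levels were divided by the exon length of each gene and are given as shares of the summed Mgat4 level. Mgat4c made up 0.362% ± 0.156 of the sum in control duodenum and 2.28% ± 0.662 in mutant duodenum. In the ileum it made up 43.0% ± 3.03 in controls and 40.9% ± 2.29 in mutants (SD, n = 4 each). Mgat4a led in the duodenum, with 61.3% in controls and 52.5% in mutants. The other family genes Mgat4d and Mgat4e had 0 counts in all 16 libraries.

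**Figure D2:**
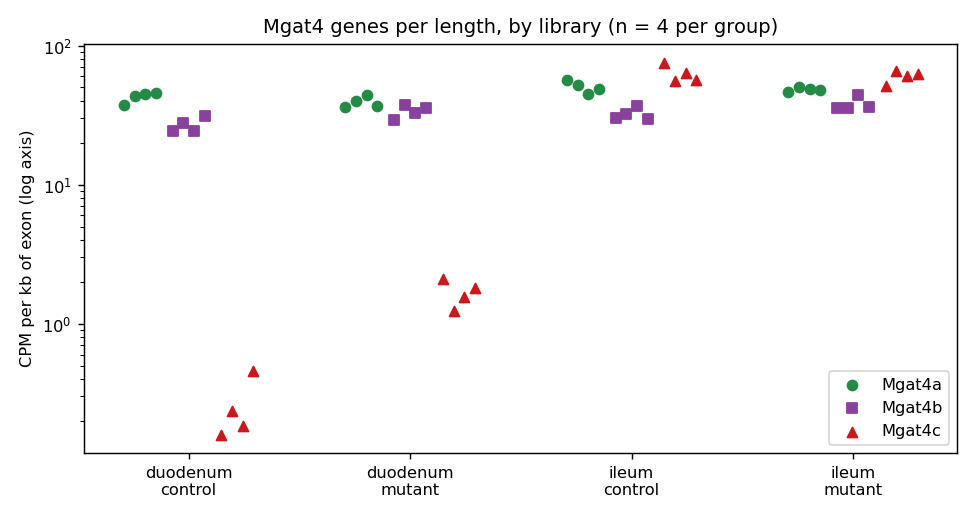
CPM per kb of exon (log axis) of Mgat4a, Mgat4b and Mgat4c in each library, 4 per group. Mgat4a and Mgat4b lie within a narrow band in all 4 groups, while Mgat4c moves from 0.258 CPM per kb in control duodenum to 62.8 in control ileum.

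Mgat4a (ENSMUSG00000026110) showed no genotype difference that passed the test. It held 559, 575, 586 and 480 CPM in control duodenum and 564, 471, 466 and 517 in mutant duodenum. Ileal levels were 673, 578, 632 and 722 CPM in controls and 628, 617, 593 and 646 in mutants. The genotype ranges overlapped in both tissues, with log2 differences of -0.13 (SE 0.15, adjusted p = 0.90, edgeR) in duodenum and -0.07 (SE 0.10, adjusted p = 0.80, edgeR) in ileum. Averaged over genotypes, the log2 difference of Mgat4a was 0.26, higher in ileum (SE 0.09, adjusted p = 0.016, edgeR), a direction that turned to -0.04 when libraries were scaled to epithelial genes. The call was lost in 6 of the 16 fits that left out 1 library, namely without NF17 or NF152 ileum, NFVCT27 or NFVCT190 ileum, NF152 duodenum or NFVCT38 duodenum, where the adjusted p reached 0.0656.

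Mgat4b (ENSMUSG00000036620) gave 75.4, 65.6, 84.4 and 65.5 CPM in control duodenum and 88.7, 96.7, 79.5 and 102 in mutant duodenum. In ileum it gave 87.7, 99.2, 80.6 and 81.9 CPM in controls and 120, 98.1, 97.0 and 97.4 in mutants. Most mutants were above most controls in each tissue, but the ranges overlapped. The log2 difference was 0.32 in duodenum (SE 0.13, 95% interval from 0.07 to 0.58, adjusted p = 0.478, edgeR). It was the only one of the 5 tested genes with an unadjusted p under 0.05 there. In ileum the log2 difference was 0.23 (SE 0.11, approximate 95% interval from 0.01 to 0.45, unadjusted p = 0.0545, adjusted p = 0.331, edgeR). Averaged over genotypes the tissue difference was 0.21 (SE 0.09, adjusted p = 0.0553, edgeR), and it turned to -0.12 when scaled to epithelial genes. It passed the test without NF32 duodenum (adjusted p = 0.0274) or NFVCT190 duodenum (adjusted p = 0.0225).

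B4galt5 (ENSMUSG00000017929) showed the reverse arrangement to Mgat4c, with a genotype difference in ileum. Control ileum held 94.2, 92.9, 99.1 and 78.5 CPM and mutant ileum 213, 171, 177 and 168 CPM. The lowest mutant was above the highest control, and the fitted log2 difference was 0.99 (SE 0.12), a 1.99-fold level. In duodenum, controls held 121, 113, 138 and 80.9 CPM and mutants 119, 108, 138 and 104, a log2 difference of 0.03 (SE 0.16) with overlapping ranges. The difference between the tissues was 0.98 (SE 0.20). Leaving out single libraries moved the ileal value between 0.90 and 1.05.

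In controls B4galt5 was lower in ileum than in duodenum in 4 of 4 animals, and in mutants it was higher in 4 of 4. The ileal level was 0.716 to 0.970 times the duodenal level in controls and 1.29 to 1.80 times in mutants. Averaged over genotypes the log2 difference of the tissues was 0.15 (SE 0.10, adjusted p = 0.205, edgeR), which did not pass the test. Scaling to epithelial genes turned this value to -0.15 and moved the control tissue difference from -0.33 to -0.72. Per 1000 epithelial counts, ileal B4galt5 was 8.78 ± 0.691 in controls and 17.6 ± 0.821 in mutants (SD, n = 4 each).

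Among the 7 beta-1,4-galactosyltransferase genes, B4galt5 took 22.2% ± 2.16 of the summed ileal level per length in controls and 33.0% ± 1.03 in mutants. B4galt6, which shares the lactosylceramide reaction, averaged 107 ± 15.7 CPM in control and 139 ± 19.9 in mutant ileum, and B4galt1, the main enzyme of glycoprotein galactosylation, 144 ± 14.3 and 168 ± 24.6 (SD, n = 4 each). Neither B4galt1 nor B4galt6 passed the test in ileum.

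The summed levels of several marker lists moved in the mutant ileum along with B4galt5. The enteroendocrine markers given above shifted most. Summed enterocyte markers (10 genes) ran from 32500 to 42000 CPM in mutants and from 19800 to 25700 in controls. Goblet markers (8 genes) ran from 18600 to 24800 against 13800 to 17800, tuft markers (8 genes) from 96.7 to 150 against 59.8 to 81.5, and smooth muscle markers (10 genes) from 5200 to 7030 against 3300 to 4610. Stem and proliferation markers (7 genes) were lower, at 824 to 1070 against 1290 to 1540, as were immune markers (9 genes), at 145 to 204 against 258 to 417. No gene of the 6 other lists was at 0 in a whole group. These sums weight abundant genes most. By single genes (edgeR), enterocyte markers had 2 called higher, 1 lower and 7 not called, with a median log2 difference of 0.08. Goblet markers had 3 higher and 5 not called, tuft markers 5 and 2, and smooth muscle markers 5 and 5. Paneth markers (8 genes) also had 3 higher and 5 not called. Their sums overlapped, at 16800 to 25600 CPM in mutants and 16000 to 21900 in controls. Stem and proliferation markers had 1 lower and 6 not called, and immune markers 2 lower and 6 not called. Over all genes, 1.77% were called higher and 1.51% lower. With the smooth muscle score as a covariate the B4galt5 difference was 0.85. Summed smooth muscle markers did not overlap between the ileal genotypes, so that fit cannot separate smooth muscle from genotype. The part of any of these lists in the B4galt5 difference was not tested.

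B4galnt2 (ENSMUSG00000013418) was the most abundant of the 7 genes per length in all 4 groups, from 311 to 334 CPM per kb. Control duodenum held 597, 551, 549 and 536 CPM and mutant duodenum 645, 492, 769 and 392. Ileal controls held 617, 463, 530 and 530 CPM and ileal mutants 486, 575, 606 and 599. All 4 groups overlapped, and the mutant duodenum was the most variable. The log2 genotype differences were 0.02 in duodenum (SE 0.19, 95% interval from -0.36 to 0.40, adjusted p = 0.99, edgeR) and 0.08 in ileum (SE 0.11, 95% interval from -0.15 to 0.30, adjusted p = 0.825, edgeR). The tissue difference averaged over genotypes was -0.05 (SE 0.11, adjusted p = 0.747, edgeR), and it passed the test as lower in ileum, at -0.33 (adjusted p = 0.0225), only with scaling to epithelial genes among the alternatives tried.

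B3galt5 (ENSMUSG00000074892) varied widely among animals. In control duodenum NF17, NF29, NF32 and NF152 held 25.9, 8.14, 30.4 and 9.08 CPM, and in mutant duodenum NFVCT27, NFVCT38, NFVCT153 and NFVCT190 held 17, 24.5, 71.8 and 12.3. Ileal levels were 11, 14.8, 7.95 and 4.05 CPM in controls and 15.2, 14.8, 13.8 and 6.55 in mutants. All groups overlapped, and NFVCT153 stood highest of all libraries. Genotype differences were 0.76 in duodenum (SE 0.70, adjusted p = 0.881, edgeR) and 0.41 in ileum (SE 0.44, adjusted p = 0.736, edgeR) on the log2 scale. Without NFVCT153 duodenum, the lowest of the fits that left out 1 library, the duodenal difference was -0.02.

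Averaged over genotypes, B3galt5 was lower in ileum by a log2 difference of -1.16 (SE 0.44, adjusted p = 0.043, edgeR), and it was lower in 3 of 4 controls and 4 of 4 mutants. The call was lost without the filter on low counts and in 10 of 16 fits that left out 1 library: each ileal library except NF29, and NF17, NF32 or NFVCT153 duodenum. The largest shift came without NFVCT153 duodenum, at -0.76 (adjusted p = 0.108).

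Fut2 (ENSMUSG00000055978) was an ileum-high gene of low level. Control duodenum held 2.78, 2.71, 4.30 and 1.17 CPM and control ileum 9.95, 22.8, 9.59 and 5.17. Mutant duodenum held 4.52, 8.84, 3.96 and 2.53 CPM and mutant ileum 38.3, 36.5, 48.3 and 10.1. The tissues did not overlap within either genotype, and 3 of 4 ileal mutants stood above every ileal control, while NFVCT190 did not. Averaged over genotypes the log2 difference was 2.42, higher in ileum (SE 0.42, adjusted p = 0.000363, edgeR), with the ileal level above the duodenal level in 8 of 8 animals, at 2.23 to 8.40 times in controls and 3.98 to 12.2 times in mutants. In controls alone it was higher by 2.12 (SE 0.55, adjusted p = 0.0206, edgeR), a call lost without NF17 duodenum (adjusted p = 0.0601), without NF29 duodenum (0.0636) and without the filter on low counts (0.0546).

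The genotype differences of Fut2 were wide. In ileum the log2 difference was 1.5 (SE 0.64, unadjusted p = 0.0566, adjusted p = 0.336, edgeR). In duodenum it was 0.88 (SE 0.43, unadjusted p = 0.0704, adjusted p = 0.633, edgeR). Neither passed the test. The approximate 95% intervals, from 0.24 to 2.76 and from 0.03 to 1.73, leave out 0 only because they are narrower than the test implies. The difference between the tissues was 0.61 (SE 0.83, adjusted p = 1, edgeR).

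**Figure D3:**
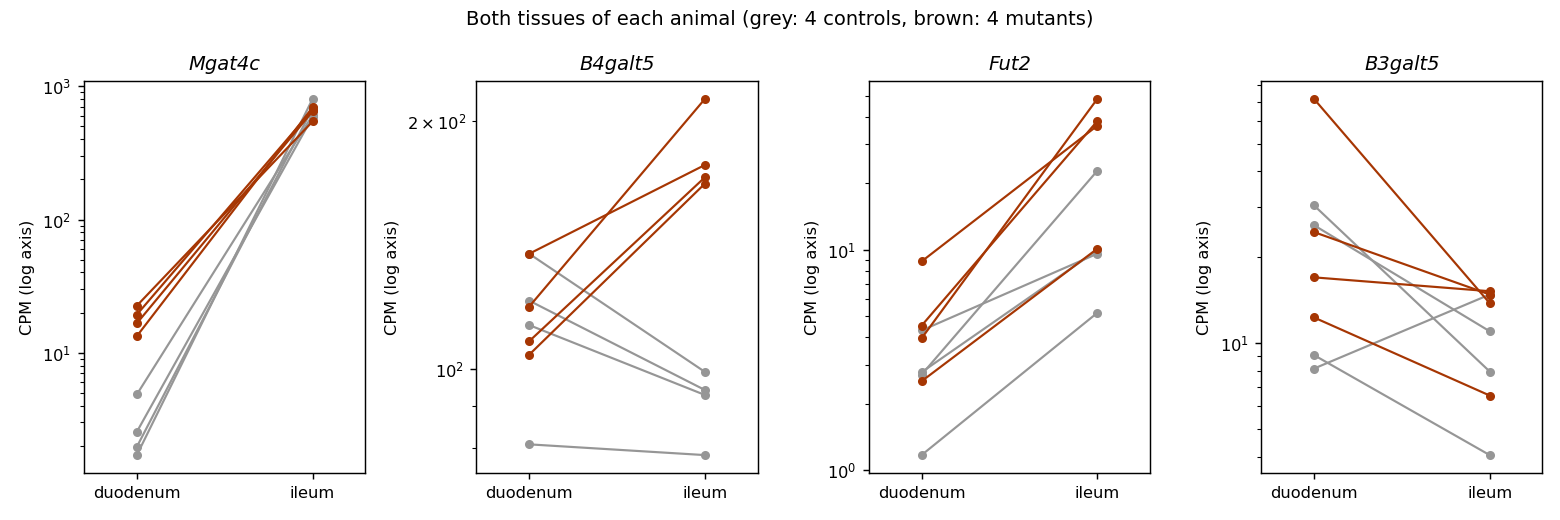
Duodenal and ileal level of Mgat4c, B4galt5, Fut2 and B3galt5 in each animal (CPM, log axis), with a line joining both tissues of an animal, grey for 4 controls and brown for 4 mutants. Mgat4c lines of mutants start higher and end together with those of controls, B4galt5 lines fall in controls and rise in mutants, and Fut2 lines rise in all 8 animals.

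Counted together, none of the 5 tested genes passed the genotype test in edgeR in the duodenum, where 0.394% of all 14703 tested genes did (0.0952% higher and 0.299% lower), or in the ileum, where 3.28% of 14951 did (1.77% higher and 1.51% lower). DESeq2 called none of them in either tissue, against 2.11% of all genes in duodenum and 5.86% in ileum. At an unadjusted p under 0.05 there was 1 of the 5 (Mgat4b) in duodenum, against 8.71% of all genes, and 0 in ileum, against 15.8%. None differed between the tissues in genotype effect, where 0.0441% of 15882 genes were called (0.0378% higher and 0.0063% lower), 0 had an unadjusted p under 0.05 (4.41% of all genes), and DESeq2 called 0 (0.24% of all genes). Between control tissues 1 of the 5, Fut2, was called, higher in ileum, against 35.9% of 14976 genes (17.1% higher and 18.7% lower). Averaged over genotypes 4 of the 7 were called (Mgat4a, Mgat4c and Fut2 higher in ileum, B3galt5 lower), against 50.6% of all genes (25.3% higher and 25.3% lower), so their count was near the background.

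Over the 4 groups the order of levels per length was led by B4galnt2. In control duodenum Mgat4a followed at 42.7 ± 3.74 CPM per kb, then Mgat4b at 26.7 ± 3.34 and B4galt5 at 26.3 ± 5.59, which did not differ beyond their spread. B3galt5 stood at 2.98 ± 1.86, Fut2 at 0.505 ± 0.236 and Mgat4c last at 0.258 ± 0.134, the last 2 with overlapping spreads. In control ileum Mgat4c was next after B4galnt2 at 62.8 ± 9.18 CPM per kb, above Mgat4a at 50.6 ± 4.77 (SD, n = 4 each). B4galt5 passed Mgat4b only in mutant ileum, at 42.3 ± 4.88 against 37.9 ± 4.09, values within their spread.

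The genes whose log2 levels followed Mgat4c most closely over the 16 libraries, among 14020 searched, were P2ry2, a receptor for extracellular nucleotides (r = 0.987), and the Paneth cell defensins Defa21 (r = 0.983) and Defa22 (r = 0.982). These correlations rest mainly on the tissue difference that all libraries share. P2ry2 averaged 2.09 ± 0.388 CPM in control and 4.30 ± 0.985 in mutant duodenum, Defa21 7.91 ± 4.12 and 15.1 ± 3.71, and Defa22 6.29 ± 2.78 and 12.1 ± 1.65 (SD, n = 4 each). Their duodenal log2 differences were 1.03 (SE 0.23), 0.93 (SE 0.34) and 0.95 (SE 0.28), each smaller than the 2.70 of Mgat4c, and none was called. Defensin genes are near copies of each other, so reads may be shared among them.

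B4galt5 was followed most closely by Igf2bp2, an RNA-binding protein (r = 0.90), B4galnt4 (r = 0.874) and Egln3, an oxygen-sensing hydroxylase (r = 0.859). In ileum Igf2bp2 averaged 35.0 ± 5.70 CPM in controls and 58.3 ± 7.43 in mutants, and Egln3 19.9 ± 3.86 and 78.4 ± 29.6 (SD, n = 4 each). Fut2 was followed by Myadm (r = 0.945), Gfpt1, the first enzyme of hexosamine synthesis (r = 0.941), and the motor Myo6 (r = 0.94). For Mgat4a, Mgat4b, B4galnt2 and B3galt5 the closest genes were Mier1 (r = 0.933), Kcnk1 (r = 0.902), Brip1os (r = 0.822) and Daglb (r = 0.935). Among the 7 genes themselves the highest correlation was between Mgat4c and Fut2 (r = 0.806) and the lowest between Mgat4a and B3galt5 (r = -0.629).

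No tested chromosomal neighbour of Mgat4c was called in the duodenum, where Mgat4c was higher in mutants. Neighbours were taken among named genes that passed the filter over all 16 libraries, so other genes may lie between them. In the RefSeq order on GRCm38.p6, Mgat4c on chromosome 10 then lies between Kitl, Tmtc3 and Cep290 on one side and Nts, Rassf9 and Slc6a15 on the other. Among these 6 genes only Nts, the neurotensin gene of enteroendocrine N cells, was called in a genotype comparison, at 59.2 ± 26.2 CPM in control and 0.291 ± 0.391 in mutant ileum (SD, n = 4 each; log2 difference -7.30, adjusted p = 0.00227, edgeR). Nts and Slc6a15 were below the filter in duodenum, and Slc6a15 also in ileum.

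The 120 other genes of 13 glycosylation lists were read beside the 7. In the ileum 6 of the 105 tested were called, 5.71% against 3.28% of all genes, with a median log2 difference of 0.08 over the 105 and -0.01 over all genes. Gcnt3, the branching enzyme of mucin O-glycans, rose from 223 CPM (range 175 to 271) to 660 CPM (range 488 to 823; log2 difference 1.56, SE 0.17, adjusted p = 0.000242, edgeR). Gcnt1, another O-glycan branching enzyme, fell from 64.3 ± 10.2 to 25.9 ± 7.31 CPM (log2 difference -1.32, SE 0.19, adjusted p = 0.00426, edgeR). St3gal6, a sialyltransferase, rose from 19.7 ± 4.54 to 36.8 ± 5.16 CPM (adjusted p = 0.00651, edgeR). B4galnt4, of the same enzyme family as B4galnt2, rose from 10.8 ± 1.28 to 18.3 ± 2.03 CPM (adjusted p = 0.00936, edgeR; SD, n = 4 each).

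The remaining 2 calls in ileum were smaller. Galnt5, which starts O-glycan chains, rose, with a log2 difference of 0.50 (SE 0.11, adjusted p = 0.023, edgeR), and Gcnt2, which branches polylactosamine, rose with one of 0.57 (SE 0.13, adjusted p = 0.0286, edgeR). Both calls were lost with scaling to epithelial genes, where the differences were 0.52 (SE 0.15) and 0.57 (SE 0.16), and in 5 of 8 fits that left out 1 ileal library, for Galnt5 without NF17, NF32, NF152, NFVCT38 or NFVCT153 and for Gcnt2 without NF17, NF32, NFVCT27, NFVCT38 or NFVCT190. All 6 ileal calls were lost with the smooth muscle score as a covariate. Only 27 genes in all were called in this fit, which cannot separate smooth muscle from genotype. In that fit the log2 differences were 1.63 (SE 0.35) for Gcnt3, 0.96 (SE 0.31) for St3gal6 and 1.06 (SE 0.21) for Gcnt2. They were -0.68 (SE 0.29) for Gcnt1, 0.47 (SE 0.26) for B4galnt4 and 0.37 (SE 0.21) for Galnt5. Of the 13 lists, mucin-type O-glycan enzymes had 2 higher and 1 lower of 18 tested. None of the 7 tested N-glycan branching enzymes was called, and Mgat4c of the same list was given no test. Of the 7, Fut8 gave 0.34 (SE 0.09, adjusted p = 0.0648, edgeR) and Mgat5 0.24 (SE 0.10, adjusted p = 0.252, edgeR).

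**Figure D4:**
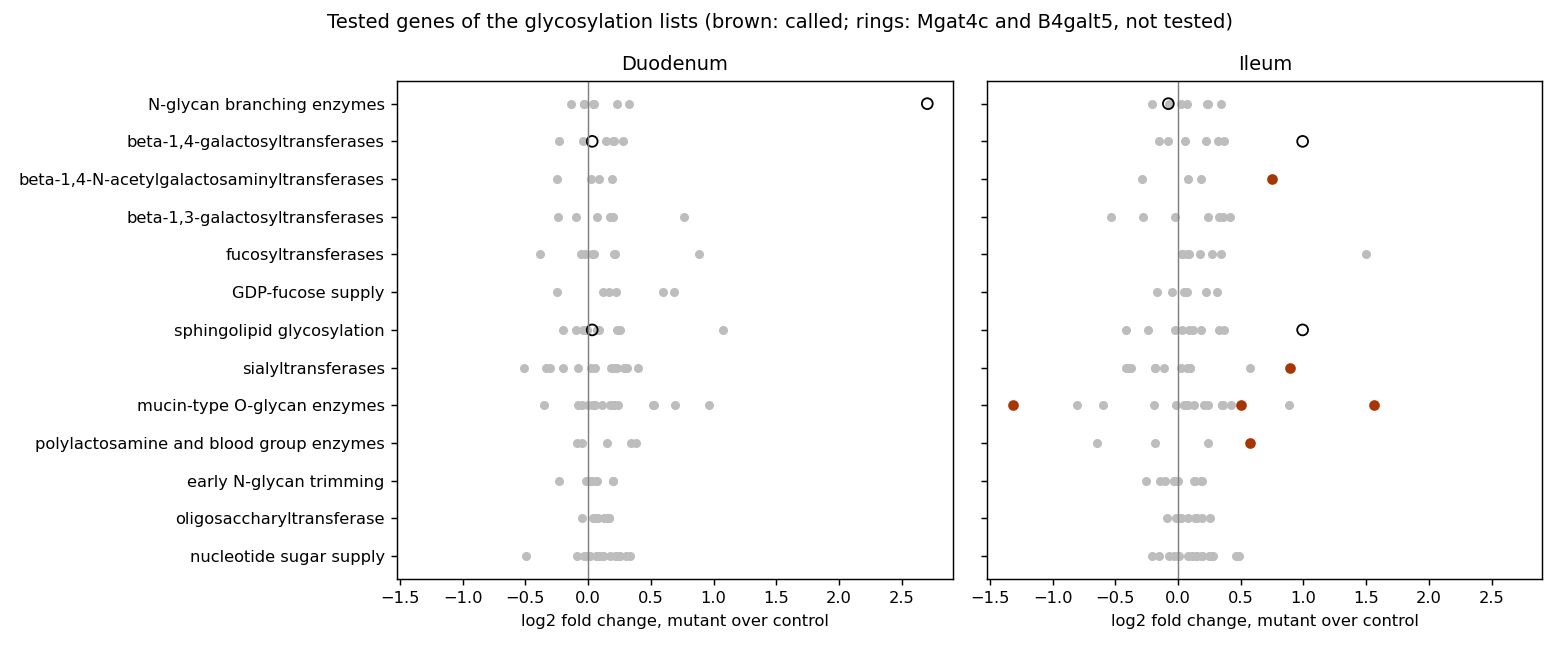
Log2 fold change of mutant over control for the tested genes of the 13 glycosylation lists in duodenum and ileum, 1 point per gene; brown points were called, and rings mark Mgat4c and B4galt5, which were not tested. A gene in more than 1 list appears in each, and 6 genes are brown, all in ileum.

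In the duodenum none of the 106 other genes tested was called by edgeR. At an unadjusted p under 0.05 there were 9 of the 106, against 1280 of 14703 genes in all (8.71%), so that count was near the background. DESeq2 called 5 of them, all higher, against 310 genes in all (2.11%), of which 119 were higher (0.81%). The median log2 difference over the 106 was 0.08, against 0.00 over all genes. Named after their values were seen, the 5 genes called by DESeq2 were Gcnt3 (0.96, adjusted p = 0.00145), Fuk, a kinase of fucose salvage (0.60, adjusted p = 0.00266), Galnt12 (0.52, adjusted p = 0.0132), B3gnt5, which extends lactosylceramide (1.08, adjusted p = 0.0171), and Gmds, of GDP-fucose synthesis (0.69, adjusted p = 0.0452). Like Mgat4c, B3gnt5 was higher in ileum than in duodenum of controls (9.12 ± 1.33 against 1.60 ± 0.538 CPM) and stood at 3.46 ± 0.235 CPM in mutant duodenum (SD, n = 4 each). No gene of the 108 tested was called for a tissue difference of the genotype effect by edgeR or DESeq2, and 8 had an unadjusted p under 0.05, against 700 of 15882 genes in all (4.41%).

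Regional differences were common in these pathways. Between control tissues, 49 of 107 other glycosylation genes were called, 45.8% against 35.9% of all genes, with 30 higher and 19 lower in ileum. Averaged over genotypes 66 of 108 were called, 40 higher and 26 lower, 61.1% against 50.6%. Mucin-type O-glycan enzymes had 13 of 18 higher and 3 lower in ileum, with a median log2 difference of 0.55 against 0.02 over all genes. Among them, Gcnt1 averaged 7.26 ± 1.35 CPM in control duodenum and 64.3 ± 10.2 in control ileum, Galnt5 12.0 ± 1.34 and 34.0 ± 2.65, and C1galt1, which makes the common O-glycan core, 102 ± 12.2 and 209 ± 21.6. St3gal6 ran the other way, at 67.4 ± 6.65 and 19.7 ± 4.54 CPM, as did Fut4, a fucosyltransferase, at 111 ± 9.94 and 49.0 ± 3.13 (SD, n = 4 each). Scaling to epithelial genes shifted the median of all genes by -0.305 for the averaged tissue comparison and by -0.409 between control tissues, and the share of calls that were higher in ileum changed from 50% to 18.3% and from 47.8% to 11.2%.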

How the data were processed

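The authors sequenced stranded, ribosomal RNA-depleted total RNA libraries, per the labels' protocols. STAR 2.5.3a, HTSeq 0.6.1p1, Bowtie2 2.2.8, cutadapt 1.10 and bcl2fastq 2.20.0.422 are listed, with build mm39, in the submitters' processing notes. The sources used here do not state the strand setting of the counting or its annotation. Raw counts of reads for each Ensembl gene, as deposited by the authors, were used for 16 libraries, with totals of 8213889 to 35076714. Of 55359 identifiers, 52083 matched a symbol. Where several identifiers carried the same symbol, the one with most counts took it, and the 68 others stayed in under their identifiers. Every pair of libraries within a group differed by more than sampling noise.

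The test was edgeR's quasi-likelihood F test, robust version (edgeR 4.0.16, R 4.3.3), after TMM scaling and the tool's filter on low counts. Benjamini-Hochberg adjustment covered all genes tested, and genes under an adjusted p of 0.05 were called, whatever the size of the change. Intervals of 95% use a normal approximation from the SE, so they are narrower than the F test implies. The steps recovered the larger spiked changes in simulated counts of independent libraries, with the same dispersion for all genes. The simulation left out the comparison averaged over genotypes and the link between both tissues of an animal. Genotype was compared within each tissue (8 libraries), the genotype effects between tissues and the tissues averaged over genotypes (16 libraries), and control tissues (8 libraries). CPM were computed on TMM scales over all 16 libraries, and CPM per kb with exon lengths of GENCODE M21; group values are mean ± SD over 4 libraries. Alternatives were DESeq2 1.42.0, RLE and epithelial scaling, no filter, leaving out each library, the animal as a block, and acinar or smooth muscle covariates. Libraries of the same animal deviated together in all 8 animals (r from 0.159 to 0.354; highest r with another animal 0.189), and the labels tie both tissues to 1 animal. The 7 genes, the glycosylation and marker lists and the tests were chosen with earlier results of these data known. Named genes are the 7, the called list genes of smallest p, genes of the same families and the 3 of highest r. The 3 nearest named genes tested over all 16 libraries on each side of Mgat4c were added. Tusc3 and Muc6 of the lists were not analysed here, and the neighbours of B4galt5 are not reported here.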

Additional observations from a re-analysis of the deposited data

Results flagged for a closer look

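Within 28 sets of 4 libraries (7 genes in 4 groups), 2 held a library far from the other 3 by Dixon's criterion, which chance meets in about 1 of 20 sets. Mgat4b in the mutant ileum of NFVCT27 stood at 120 CPM against 97.0 to 98.1 in the other 3. B3galt5 in the mutant ileum of NFVCT190 stood at 6.55 CPM against 13.8 to 15.2.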

How the results depend on the processing

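Mgat4c and B4galt5 were chosen on these same libraries, so refits of their genotype differences are a description and no independent support. Mgat4c in duodenum and B4galt5 in ileum kept their direction, at 2.5 to 2.76 over 6 other settings and 0.85 to 1.001 over 5. Their small values in the other tissue turned: Mgat4c in ileum to 0.41 with the smooth muscle covariate and up to 0.01 without 1 library, and B4galt5 in duodenum to -0.15 with epithelial scaling and down to -0.095 without 1 library. Mgat4a averaged over genotypes turned to -0.041 with epithelial scaling. Without NF32 duodenum the Mgat4c difference between tissues was -3.18. Genes called in duodenum numbered 58, against 310 with DESeq2, 156 with epithelial scaling, 169 without the filter, 31 without the 2 libraries of highest acinar level and 27 to 61 without 1 library (lowest without NF17, NF29 or NFVCT38); other glycosylation genes called there numbered 5 with DESeq2 and 3 without the filter (Gcnt3, Fuk and Gmds). In ileum 490 genes became 875, 1096 without the filter and 27 with the smooth muscle covariate, and 272 to 472 without 1 library (lowest without NF17, NF32 or NFVCT38); the 6 glycosylation genes became 13, 11 and 0. Between control tissues the tested members called went from 1 to 2 with epithelial scaling (B4galnt2 lower, at -0.49, adjusted p = 0.00837) and 0 without the filter, and 0 to 1 without 1 library (0 without NF17 or NF29 duodenum). Averaged over genotypes they numbered 2 to 5 without 1 library (2 without NF17, NF152, NFVCT27 or NFVCT190 ileum). Epithelial scaling shifted the median of all genes by -0.198 in the duodenal genotype comparison and by 0.204 in its difference between tissues, and the duodenal calls went from 14 higher and 44 lower (24.1% higher) to 15 and 141 (9.62%). The cause of these shifts was not tested. Mgat4c and Fut2 in control duodenum rested on 137 and 132 counts over 4 libraries, and varied among them by 52% and 46.7% (coefficient of variation).

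Genotype effects that differed between tissues numbered 7, against 38 with DESeq2, 18 with epithelial scaling and 15 without the filter. They numbered 3 to 13 without 1 library, and 16 with the animal as a replicate block. In the comparisons across tissues the pairing changed no call of the tested genes among the 7. Mgat4c and B4galt5 were tested only in the comparison averaged over genotypes. No paired analysis was possible within a tissue because no animal entered both genotypes.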
